A study of Mus musculus with 36 samples.

Results

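The comparison described here is the difference between natural killer (NK) cells of B2m-/- mice (KO) and of B2m+/+ mice (WT) within a single sorted subset, named SP, of mature splenic NK cells. The SP cells were sorted as CD27- and CD11b+, positive for the receptor Ly49I, and negative for Ly49C and for NKG2A. The members are the libraries that the labels give to this subset, 3 from WT mice and 3 from KO mice, 6 of the 36 samples in the series. WT mice were C57BL/6 (B6), and the labels name no background strain for the KO mice and no age for either. The part of strain background in the differences between KO and WT was not tested. Per the labels, all 6 samples came from spleen, are separate biological replicates and carry 1 batch date. No treatment is named for any of them. RNA was read as messenger RNA libraries, and the deposited levels are in TPM, a unit that corrects for gene length and sets all libraries to a common total. For comparison, the same genotypes were also sorted as TP cells (positive for Ly49C, Ly49I and NKG2A) and as TN cells (negative for all 3 receptors), with 3 libraries in each group, in the same deposited table of 18 libraries.

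B2m encodes beta-2-microglobulin, the invariant light chain that classical MHC class I molecules need to fold and to reach the cell surface, so mice without it have very little surface MHC class I. Inhibitory receptors of the Ly49 family and the CD94/NKG2A receptor bind MHC class I on neighbouring cells, and NK cells that receive this input during their life respond more strongly through activating receptors, a process called education or licensing. NK cells of B2m-/- mice are known to be present but poorly responsive, and Ly49I is one of the Ly49 receptors that can bind an MHC class I molecule of B6 mice. The comparison thus asks how the transcripts of cells carrying 1 such receptor differ between hosts with and without its ligands.

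The depth of each library cannot be read from TPM. In its place, genes with a value above 0 were counted, and their number ran from 12290 to 13418 in WT SP libraries and from 13813 to 14501 in KO SP libraries, ranges that do not overlap. Among tested genes, 1234 were listed at 0 in at least 1 WT SP library and 678 in at least 1 KO SP library. Pearson correlations of log2 values between replicates ran from 0.912 to 0.930 in WT SP and from 0.957 to 0.965 in KO SP. Whether this difference between the groups took part in the calls on genes at low levels was not tested. In bulk RNA, a lower level from fewer cells of a type and from less RNA per cell cannot be told apart.

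The 12 NK identity markers, among them the cytotoxic proteins Gzma and Prf1 and the receptors Klrb1c and Ncr1, summed to 23192 to 24922 TPM in WT SP and 23973 to 25183 TPM in KO SP libraries. Of the genes behind the sort, Klra9, which encodes Ly49I, stood at 966, 805 and 1013 TPM in WT and 1191, 1199 and 1498 TPM in KO libraries. Klra3, which encodes Ly49C, had a mean of 1.40 against 1.12 TPM (in every such pair of means WT comes first), so the labelled absence of Ly49C was matched by levels near 0. Klrc1, which encodes NKG2A, was low but not at 0, with a mean of 25.4 against 30.4 TPM. Itgam, the gene of CD11b, had a mean of 642 against 646 TPM, and Cd27, whose protein was gated out, had 116 against 156 TPM, with a log2 difference of 0.42 and adjusted p = 0.166. Markers of other cells were low and gave no called gene among 10 tested B and plasma cell genes, 5 T cell genes, 8 neutrophil, monocyte and macrophage genes and 7 erythroid and platelet genes. The summed myeloid markers ran from 8.13 to 26.57 TPM in WT and from 7.72 to 12.91 TPM in KO libraries, and the defining granule genes S100a8, S100a9, Ngp, Ltf and Lcn2 were listed at 0 in all 3 WT SP libraries and had means of at most 0.90 TPM in KO. The summed B cell markers ran from 187.6 to 207.9 TPM in WT and from 207.1 to 238.3 TPM in KO, most of it from Ighm, while Cd79a and Ms4a1 were too low to be tested. The summed T cell markers, mainly Trbc2 and Lef1, which NK cells also transcribe, ran from 253.7 to 285.9 TPM in WT and from 275.6 to 295.0 TPM in KO, and Cd3e, Cd4 and Cd8a were too low to be tested. The erythroid and platelet sums ran from 113.7 to 139.7 TPM in WT and from 103.9 to 123.7 TPM in KO.

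Loss of B2m in SP cells went with 92 genes called higher and 70 called lower in KO among 12018 tested. A call means an adjusted p below 0.05 in limma. These are 1.35% of the tested genes called in either direction, 0.766% called higher and 0.582% called lower. At an unadjusted p under 0.05 there were 1403 genes. All 162 called genes had KO and WT libraries that did not overlap, beside 18.9% of all tested genes. The median log2 difference over all tested genes was 0.03, and 81 called genes differed by at least 1 on the log2 scale, which is 2-fold, with 40 higher and 41 lower. Differences were taken on the log2(TPM + 1) scale, which understates the fold change of genes at low levels. The number of calls rested partly on single libraries: it was 102 without WT replicate 2, 99 without KO replicate 1, 91 without KO replicate 2 and 102 without KO replicate 3, and 68 when the 6 SP libraries were fitted alone. Of the 162, 45 were called under every one of the 15 alternatives. All kept their direction where they were tested, but most alternatives could not have changed it. Other filters, variance models, blocks and the SP libraries alone leave the difference itself as it is. Where groups do not overlap, leaving out 1 library cannot turn its sign.

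**Figure D1:**
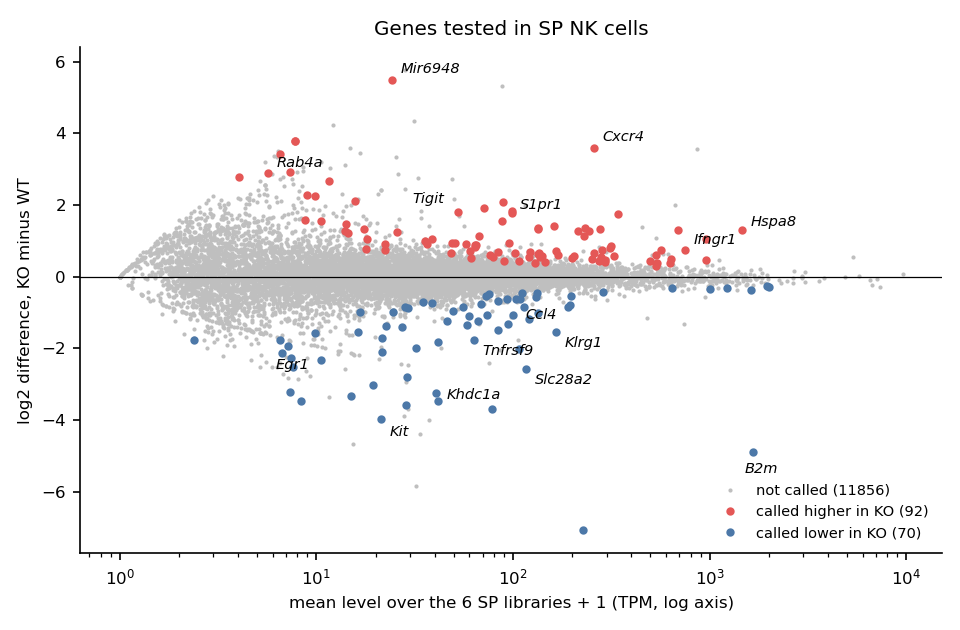
Each point is 1 of 12018 tested genes. The x axis is the mean level over the 6 SP libraries plus 1 in TPM on a log axis, the y axis the log2 difference of KO minus WT, and colours mark the 92 genes called higher and the 70 called lower. The lowest called points are the predicted gene Gm4956, at -7.07, and B2m, at -4.89, and Cxcr4, at 3.61, is the highest called gene that is not listed at 0 in all WT libraries.

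The gene that was deleted checks the labels. B2m stood at 3271, 3317 and 3056 TPM in the WT SP libraries and at 107, 106 and 109.9 TPM in the KO SP libraries. The 2 groups were far apart, and the KO level was a fraction of 0.0334 of the WT level but not 0. B2m fell by 4.89 on the log2 scale (SE 0.12, adjusted p = 2.93e-14). The labels do not say which part of the gene is missing in the KO allele, so the remaining signal was not assigned to any exon.

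Transcripts of other MHC class I and peptide-loading genes were mostly not called. Of 29 tested members of this list, B2m alone was called lower and Calr alone higher, 6.90% beside 1.35% of all tested genes. That share counts B2m, the deleted gene, so Calr was the only call among the other members. The list's median log2 difference was 0.02 beside 0.03 over all genes. Calr encodes calreticulin, a chaperone of the endoplasmic reticulum that holds MHC class I heavy chains during loading. Its level was 409.7, 412 and 431 TPM in WT and 578, 574 and 559 TPM in KO, without overlap, and it rose by 0.45 (SE 0.072, adjusted p = 0.00242). The classical heavy chains had means of 6754 against 6313 TPM for H2-K1 and 2947 against 2921 TPM for H2-D1 in WT against KO, with log2 differences of -0.10 and -0.01. Tap1, a subunit of the peptide transporter, had 189 against 191 TPM. H2-K2, a class I gene close in sequence to H2-K1 that the list does not hold and that is named here after its values were seen, had 66.8, 57.3 and 65.6 TPM in WT and 96.2, 98.7 and 114 TPM in KO. It rose by 0.70 (SE 0.16, adjusted p = 0.0407), and in TP cells by 0.72 (adjusted p = 0.0313). The call in SP was made under 4 of 15 alternatives and was lost without any 1 of the 6 SP libraries, with adjusted p up to 0.193, and reads may be shared with H2-K1. H2-T10, a non-classical class I gene, had the second lowest value of the list, -0.46 with adjusted p = 0.409. No member of the interferon-stimulated gene list was called among 27 tested, with a median of -0.00, 5 at an unadjusted p under 0.05 and 1 called without WT replicate 1. The summed level of that list was 2906 to 3003 TPM in WT and 2579 to 2851 TPM in KO SP libraries, without overlap.

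Receptors that inhibit or restrain NK cells moved in both directions. Of 14 tested entries of the list of inhibitory and checkpoint receptors outside the Ly49 family, Tigit and Klrb1b rose and Klrg1 fell. These are 21.4% of the entries, beside 1.35% of all tested genes. Klrg1, a lectin receptor for cadherins that marks mature NK cells, had 298, 218 and 223 TPM in WT and 85.4, 74.7 and 87.7 TPM in KO. Every KO library lay below every WT library, and Klrg1 fell by 1.55 on the log2 scale (SE 0.14, adjusted p = 4.00e-06). Klrb1b, which encodes the inhibitory receptor NKR-P1B, had 163, 151 and 153 TPM in WT and 347, 411 and 439 TPM in KO. The groups did not overlap, and it rose by 1.35 (SE 0.11, adjusted p = 1.53e-06). Tigit, an inhibitory receptor for nectin-family ligands, had 25.4, 14.0 and 28.5 TPM in WT and 84.2, 94.6 and 61.6 TPM in KO, and rose by 1.82 (SE 0.34, adjusted p = 0.00932). The call of Tigit was lost without WT replicate 2 or KO replicate 1 or 2, with adjusted p up to 0.0699. Cd96, which binds a nectin-family ligand as well, had 91.5 against 70.1 TPM and was not called (adjusted p = 0.163), and Cd160 had 64.9 against 44.0 TPM (adjusted p = 0.0832). Ptpn6 encodes SHP-1, the phosphatase that inhibitory receptors recruit, and belongs to the proximal signalling list. It stood at 122, 192 and 119.8 TPM in WT and 326, 328 and 289 TPM in KO, with WT replicate 2 the highest of the WT libraries and still below all KO libraries, and it rose by 1.15 (SE 0.16, adjusted p = 6.16e-04). With the 6 SP libraries fitted alone, its adjusted p was 0.111. Klrb1, a gene of the NKR-P1 family that the list does not hold and that is named after its values were seen, had 44.9, 35.5 and 52.5 TPM in WT and 77.6, 97.5 and 71.8 TPM in KO and rose by 0.88 (adjusted p = 0.0164). That call was lost without WT replicate 2 or KO replicate 1 or 2 and with the 6 SP libraries alone, with adjusted p up to 0.161. The NKR-P1 genes are near-identical in part of their sequence, so the division of reads among them is uncertain.

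The Ly49 receptors themselves gave 1 call among 11 tested, 9.09% beside 1.35% of all tested genes, with a median of 0.14. Klra7, which encodes the inhibitory receptor Ly49G, had 537, 559 and 483 TPM in WT and 724, 764 and 722 TPM in KO, and rose by 0.49 (SE 0.090, adjusted p = 0.00757). The call of Klra7 was lost without KO replicate 2, with adjusted p up to 0.0545. Klra9, the Ly49I gene that the cells were sorted on, had a difference of nearly the same size, 0.48, and missed the threshold (adjusted p = 0.0781), although its WT and KO libraries did not overlap. Klra4 and Klra8, which encode the activating receptors Ly49D and Ly49H, had log2 differences of -0.41 and -0.36 with adjusted p = 0.160 and 0.297. Ly49 genes are near-identical copies, and reads can be shared out wrongly among them.

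Activating receptors and adaptors gave 3 calls among 24 tested, 12.5% beside 1.35% of all tested genes. Slamf7 and Ncr1 fell and Cd2 rose, and the median was -0.00. Slamf7, a self-binding receptor of the SLAM family that can activate NK cells, had 147, 156 and 133 TPM in WT and 82.6, 66.0 and 94.2 TPM in KO. It fell by 0.85 on the log2 scale (SE 0.14, adjusted p = 0.00367), and its adjusted p was 0.112 with the 6 SP libraries fitted alone. Ncr1, which encodes the activating receptor NKp46, had 2213, 2150.3 and 2023 TPM in WT and 1728, 1803 and 1846 TPM in KO, and fell by 0.25 on the log2 scale (adjusted p = 0.035). Cd2, an adhesion and costimulatory receptor, rose by 0.30 (adjusted p = 0.0485). Calls were lost, with adjusted p up to 0.195, for Ncr1 and Cd2 without WT replicate 1 or 2 or any KO replicate. With quantile normalization Ncr1 had a difference of -0.13 (adjusted p = 0.399) and Cd2 one of 0.25 (adjusted p = 0.111). Klrk1, the gene of NKG2D, had 1784 against 1918 TPM, the adaptor Tyrobp had 2587 against 2371 TPM, and neither was called. Crtam, a class I-restricted T cell-associated molecule, had the lowest value of the list that was not called, -1.02 with adjusted p = 0.0942. Of 32 proximal signalling genes, Ptpn6 and Ubash3b were called, 6.25% beside 1.35% of all tested genes. Ubash3b encodes a phosphatase that limits Syk and Zap70 and had 87.8 against 62.1 TPM. It fell by 0.49 on the log2 scale (adjusted p = 0.0485), a call that was lost without any 1 of the 6 SP libraries, with adjusted p from 0.0638 to 0.202. Zap70 had 206 against 236 TPM and Syk 215 against 253 TPM, with adjusted p = 0.434 and 0.170.

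**Figure D2:**
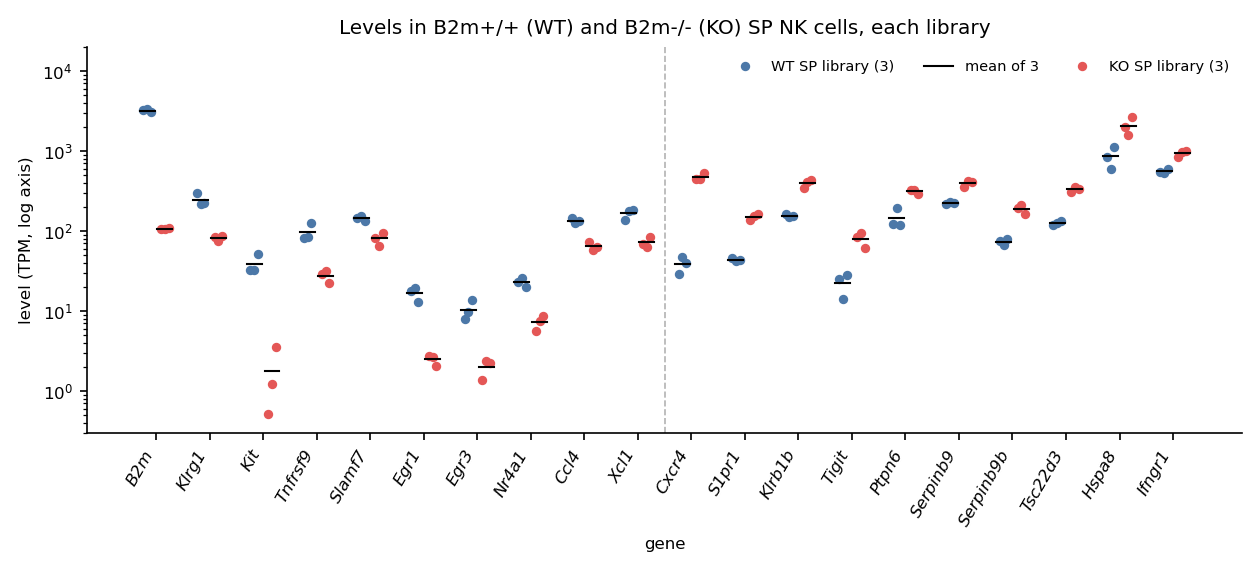
Levels of 20 genes in each SP library in TPM on a log axis, blue for WT and red for KO, with black bars for the means of 3. Genes left of the dashed line were called lower in KO and genes right of it higher, and for each of the 20 genes the 3 KO points and the 3 WT points do not overlap.

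Transcription factors that are switched on within minutes to hours of receptor signalling were lower where they were called. Of 36 tested immediate-early and calcium-induced genes, Egr1, Egr3 and Nr4a1 fell and none rose, 8.33% called beside 1.35% of all tested genes. The list's median was -0.01, beside 0.03 over all genes. Its summed level went the other way, from 3351 to 3534 TPM in WT SP libraries and from 3672 to 3914 TPM in KO SP libraries, without overlap. Egr1, a zinc-finger factor induced by MAP kinase signalling, had 17.7, 19.3 and 13.1 TPM in WT and 2.75, 2.70 and 2.07 TPM in KO, without overlap. It fell by 2.33 on the log2 scale (SE 0.37, adjusted p = 0.00201). Egr3, a related factor induced by calcium and NFAT, had 7.90, 9.83 and 13.6 TPM in WT and 1.37, 2.37 and 2.21 TPM in KO, and fell by 1.93 on the log2 scale (SE 0.43, adjusted p = 0.0304). Nr4a1, an orphan nuclear receptor (Nur77) widely used as a readout of antigen receptor signalling, had 22.9, 26.2 and 20.1 TPM in WT and 5.71, 7.49 and 8.78 TPM in KO. It fell by 1.54 on the log2 scale (SE 0.30, adjusted p = 0.0117). In all 3 genes each KO library was below each WT library. With 1 library left out, the call was lost for Egr3 without WT replicate 2 or 3 or any KO replicate and Nr4a1 without WT replicate 2 or KO replicate 1 or 2, with adjusted p up to 0.138. The other family members had the same sign without passing the test, with -1.46 for Egr2 (adjusted p = 0.403), -0.96 for Nr4a3 (adjusted p = 0.141) and -0.51 for Nr4a2 (adjusted p = 0.611). Other early genes had values on the other side of 0, such as 0.85 for Jun (adjusted p = 0.240), 0.68 for Dusp2 (adjusted p = 0.0511) and 0.65 for Irf8 (adjusted p = 0.0988), and Fos had 3.90 against 2.88 TPM.

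Promoters were planned for the called early genes and for the homing receptor with the largest change, Cxcr4. Those of Egr1 and Egr3 are not reported here, which leaves those of Nr4a1, which fell, and of Cxcr4, which rose. Both promoters carry a copy of the same 9-base EGR site. Each is the 250 bases before the RefSeq transcription start on build GRCm38.p6, read 5′ to 3′ on the gene's own strand, with motif matches in capitals. The Nr4a1 window lies at chr15:101266596-101266845 on the plus strand and the Cxcr4 window at chr1:128592300-128592549 on the minus strand.
Nr4a1: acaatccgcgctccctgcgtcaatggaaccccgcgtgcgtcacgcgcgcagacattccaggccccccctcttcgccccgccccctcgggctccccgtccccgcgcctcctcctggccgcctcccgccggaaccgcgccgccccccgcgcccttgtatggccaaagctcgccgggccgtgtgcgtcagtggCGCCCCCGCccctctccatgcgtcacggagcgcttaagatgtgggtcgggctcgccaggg
Cxcr4: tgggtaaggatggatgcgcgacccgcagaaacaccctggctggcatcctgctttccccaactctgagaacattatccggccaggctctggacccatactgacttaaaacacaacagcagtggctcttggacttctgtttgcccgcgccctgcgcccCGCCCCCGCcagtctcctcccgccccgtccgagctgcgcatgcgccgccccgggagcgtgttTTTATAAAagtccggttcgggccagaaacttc
The shared capitals CGCCCCCGC are the reverse complement of the EGR site GCGGGGGCG, at -60 to -52 in Nr4a1 and at -94 to -86 in Cxcr4 counted from the start site. The other capitals in Cxcr4 are 2 overlapping TATA box matches, TTTATA read from the other strand at -32 to -27 and TATAAA at -30 to -25. Motifs were searched on both strands, and among 32851 RefSeq promoter windows of the same length 3.06% hold an EGR site (GCGGGGGCG or GCGTGGGCG) and 12.4% a TATA box (TATAAA). The cAMP response element TGACGTCA (1.55% of windows), the AP-1 site TGANTCA (6.75%), the NBRE site AAAGGTCA (1.34%) and the CArG box (1.47%) had no match in these 2 windows. These matches describe letters and no binding was measured.

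Effector genes were called in both directions. Of 22 tested members of this list, the chemokine genes Ccl4, Xcl1 and Ccl3 fell and Serpinb9, Serpinb9b and Ctsc rose, 27.3% beside 1.35% of all tested genes, with a median of -0.01. Ccl4, a chemokine that attracts monocytes and lymphocytes, had 146, 126 and 133 TPM in WT and 72.6, 57.5 and 62.5 TPM in KO, without overlap, and fell by 1.06 on the log2 scale (SE 0.16, adjusted p = 0.00162). Xcl1, which attracts cross-presenting dendritic cells, had 138, 176 and 184 TPM in WT and 69.5, 63.1 and 85.2 TPM in KO, and fell by 1.18 on the log2 scale (SE 0.26, adjusted p = 0.028). Ccl3, the neighbour of Ccl4 in the genome, had 223, 246 and 229 TPM in WT and 177, 148 and 160.0 TPM in KO, and fell by 0.52 on the log2 scale (SE 0.12, adjusted p = 0.033). Calls were lost, with adjusted p up to 0.166, for Xcl1 without WT replicate 2 or 3 or any KO replicate and Ccl3 without any WT replicate or KO replicate 2 or 3. Ccl5, the most abundant chemokine gene of the list, had 8106 against 6619 TPM and was not called (adjusted p = 0.0731). Serpinb9, which protects killer cells from their own granzyme B, had 221, 234 and 226 TPM in WT and 359, 419 and 408 TPM in KO. It rose by 0.80 (SE 0.070, adjusted p = 3.49e-06). Serpinb9b, a related serpin, had 75.8, 66.2 and 80.0 TPM in WT and 195, 212 and 165 TPM in KO and rose by 1.35 (SE 0.15, adjusted p = 7.01e-05). Both serpins had KO libraries above all WT libraries. Ctsc, the cathepsin that activates granzymes, rose by 0.58 from 172, 137 and 179.7 TPM in WT to 230.1, 249 and 247 TPM in KO (adjusted p = 0.00562), and had adjusted p = 0.149 with the 6 SP libraries fitted alone. The killing proteins themselves were not called, with means of 9360.1 against 9842 TPM for Gzma, 1479.5 against 1465 TPM for Prf1 and 912 against 1141 TPM for Gzmb (adjusted p = 0.071). Ifng had 55.2 against 39.5 TPM, a log2 difference of -0.49 and adjusted p = 0.212. Of 18 genes for granule docking and release none was called, 2 were at an unadjusted p under 0.05, and the median was -0.04.

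Receptors that place NK cells in tissue gave the rise with the smallest adjusted p. Cxcr4, the receptor for the marrow chemokine CXCL12, had 29.2, 47.0 and 39.6 TPM in WT and 448, 448 and 528 TPM in KO, and the KO mean was 12.3 times the WT mean. The groups were far apart, and Cxcr4 rose by 3.61 (SE 0.18, adjusted p = 1.40e-09). S1pr1, the sphingosine-1-phosphate receptor used for exit from lymphoid tissue, had 46.5, 41.8 and 43.0 TPM in WT and 138, 153 and 164 TPM in KO, without overlap. It rose by 1.77 (SE 0.13, adjusted p = 3.12e-07). S1pr5, the sphingosine receptor typical of mature NK cells, had 428 against 346 TPM and was not called (log2 difference -0.30, adjusted p = 0.129). Of 23 tested members of this list 2 rose and 2 fell, 17.4% beside 1.35% of all tested genes, with a median of -0.12. The falls included Itgb2, the beta-2 integrin chain shared by LFA-1 and CD11b, with 1829, 1939.8 and 1693 TPM in WT and 1411, 1463 and 1386 TPM in KO. Itgb2 fell by 0.36 on the log2 scale (adjusted p = 0.0066). The call of Itgb2 was lost without WT replicate 2, with adjusted p up to 0.0506. Cx3cr1, a chemokine receptor gained on maturation, had 78.1 against 42.6 TPM and just missed the threshold (adjusted p = 0.0537).

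Cytokine receptors included the deepest fall of a surface receptor. Kit, the receptor for stem cell factor, had 32.8, 32.8 and 51.1 TPM in WT and 0.51, 1.24 and 3.57 TPM in KO, without overlap. It fell by 3.97 on the log2 scale (SE 0.36, adjusted p = 4.41e-06), and the KO mean was 0.0456 of the WT mean. Kit is also one of the 8 tested markers of other innate lymphoid cells, and no other marker of that list was called, with Il7r at means of 0.0567 against 0.357 TPM. The share called in that list was 12.5%, beside 1.35% of all tested genes. The other markers of that list, summed without Kit and mostly from Gata3, were at 66.1, 59.4 and 65.0 TPM in WT and 76.4, 83.8 and 84.1 TPM in KO. Every KO sum was thus above every WT sum while Kit was lower, 6 of the 8 tested markers had a log2 difference above 0, and the median was 0.54. The part of such cells in the fall of Kit was not tested. Tnfrsf9, the costimulatory receptor 4-1BB that appears on activated lymphocytes, had 81.2, 84.4 and 126 TPM in WT and 29.1, 31.6 and 22.2 TPM in KO, and fell by 1.76 on the log2 scale (SE 0.26, adjusted p = 9.06e-04). Il21r, Il27ra and Il18rap fell too, by smaller amounts. Of 31 tested cytokine receptor and feedback genes 5 thus fell and 2 rose, 22.6% beside 1.35% of all tested genes, with a median of -0.09. Il21r stood at 24.5, 23.2 and 16.0 TPM in WT and 10.5, 9.52 and 10.2 TPM in KO. Il27ra stood at 84.7 against 58.5 TPM and Il18rap, a subunit of the interleukin-18 receptor, at 1122 against 888 TPM in WT against KO, with log2 differences of -0.53 and -0.33. With 1 library left out, the call was lost for Il21r and Il18rap without WT replicate 1 or 2 or any KO replicate, with adjusted p up to 0.150. The call of Il27ra was lost without any 1 of the 6 SP libraries, with adjusted p from 0.0763 to 0.169. The other interleukin-18 receptor subunit, Il18r1, went the other way, from 467, 469.9 and 453 TPM in WT to 591, 647 and 598 TPM in KO, and rose by 0.40 (SE 0.071, adjusted p = 0.00556, and 0.0640 with the 6 SP libraries fitted alone). Ifngr1, the ligand-binding chain of the interferon-gamma receptor, had 555, 534 and 589 TPM in WT and 851, 973 and 991 TPM in KO. It rose by 0.74 (SE 0.080, adjusted p = 4.21e-05). The chains that bind interleukin-2 and interleukin-15 did not pass the test, with 1923 against 1985 TPM for Il2rb and 930.1 against 859 TPM for Il2rg, and Socs2, a feedback inhibitor, had the highest value of the list that was not called, 2.11 with adjusted p = 0.358.

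Heat shock chaperones were the list with the most rises, and their levels also differed by replicate number. Of 16 tested genes 6 rose and none fell, 37.5% called beside 1.35% of all tested genes. A log2 difference above 0 was seen in 15 of 16, and the median was 0.70 beside 0.03 over all genes. Hspa8, the constitutive cytosolic Hsp70, had 835, 598 and 1134 TPM in WT and 1996, 1586 and 2638 TPM in KO, with the lowest KO library above the highest WT library. It rose by 1.29 (SE 0.26, adjusted p = 0.0139). Hsph1, a nucleotide exchange factor for Hsp70, had 29.4, 22.1 and 29.7 TPM in WT and 88.7, 69.4 and 183 TPM in KO and rose by 1.92 (adjusted p = 0.0134). The Hsp40 co-chaperones Dnajb1 and Dnaja1 rose by 1.15 and 1.27, Hsp90ab1 rose by 0.74 and Hspa5, the endoplasmic reticulum Hsp70 (BiP), rose by 0.51, with adjusted p between 0.00822 and 0.0368. The inducible Hspa1b had 3.62, 3.87 and 5.54 TPM in WT and 19.8, 7.62 and 35.8 TPM in KO, and was not called (adjusted p = 0.322). Summed over the list, the level was 2546, 2173 and 2911 TPM in WT SP replicates 1, 2 and 3 and 4513, 3901 and 6105 TPM in KO SP replicates 1, 2 and 3. In each of the 6 groups of the table, SP, TP and TN of both genotypes, replicate 3 had the highest sum and replicate 2 the lowest. With the 6 SP libraries fitted alone no member was called. Calls were lost, with adjusted p up to 0.204, for Hspa8 without WT replicate 2 or KO replicate 1 or 3, Hsph1 without WT replicate 2 or KO replicate 3, Dnajb1 without WT replicate 1 or KO replicate 3, Dnaja1 without WT replicate 1 or 2 or any KO replicate, Hsp90ab1 without any WT replicate or KO replicate 1 or 3, and Hspa5 without WT replicate 2 or KO replicate 1.

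Of 19 tested genes that respond to glucocorticoid or belong to the clock, 2 rose and none fell, with a median of 0.18. These are 10.5% of the list, beside 1.35% of all tested genes. Tsc22d3 (GILZ), a direct target of the glucocorticoid receptor, had 120.1, 128 and 135 TPM in WT and 312, 351 and 335 TPM in KO, without overlap. It rose by 1.37 (SE 0.13, adjusted p = 4.41e-06). Ddit4, an inhibitor of mTORC1 that responds to stress and glucocorticoid, had 49.2, 31.6 and 52.9 TPM in WT and 123, 147 and 119.8 TPM in KO and rose by 1.55 (SE 0.21, adjusted p = 4.24e-04), with adjusted p = 0.0653 when the 6 SP libraries were fitted alone. Other members did not pass the test, such as Fkbp5 with 59.9 against 75.8 TPM, Per1 with 29.4 against 42.1 TPM and Zbtb16 with 9.41 against 16.7 TPM. The receptor itself, Nr3c1, had 89.7 against 102 TPM.

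In the lists for lineage, survival, division and metabolism most members were not called, with 3.45%, 5.56%, 3.03% and 8.70% called beside 1.35% of all tested genes. Of 29 transcription factors of NK maturation Tcf7, the factor TCF-1 of early lymphocytes, was called. Its level was 115, 134 and 132 TPM in WT and 99.2, 88.0 and 93.4 TPM in KO, and it fell by 0.44 on the log2 scale (adjusted p = 0.0457). Eomes had 421 against 457 TPM, Tbx21 (T-bet) 467 against 389 TPM and Zeb2 315 against 209 TPM, with adjusted p = 0.611, 0.227 and 0.0967. Of 18 survival and death genes Bcl2, which blocks apoptosis, was called, with 75.8, 81.8 and 75.3 TPM in WT and 119, 144 and 113 TPM in KO, and it rose by 0.67 (SE 0.12, adjusted p = 0.007). Bcl2a1b and Bmf had larger negative values, -1.87 and -1.57, that did not pass (adjusted p = 0.0804 and 0.134). Of 33 cell cycle genes the mitotic checkpoint kinase Bub1b was called, at 2.00, 3.43 and 2.68 TPM in WT and 0.24, 0 and 0.03 TPM in KO, all of them low, while Mki67 had 4.63 against 2.30 TPM and was not called (adjusted p = 0.415). Of 23 genes of glycolysis and nutrient transport, the glucose transporter Slc2a3 fell by 0.66 on the log2 scale, from 102, 103 and 99.8 TPM in WT to 71.5, 54.6 and 65.9 TPM in KO (adjusted p = 0.0238). Slc3a2, the shared chain of amino acid transporters, rose by 0.55, from 103, 117 and 109 TPM in WT to 145, 195 and 149 TPM in KO (adjusted p = 0.0365). With 1 library left out, the call was lost for Tcf7 and Bub1b without WT replicate 2 or 3 or any KO replicate, Bcl2 without KO replicate 2, and Slc2a3 and Slc3a2 without any WT replicate or KO replicate 2 or 3, with adjusted p up to 0.193.

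**Figure D3:**
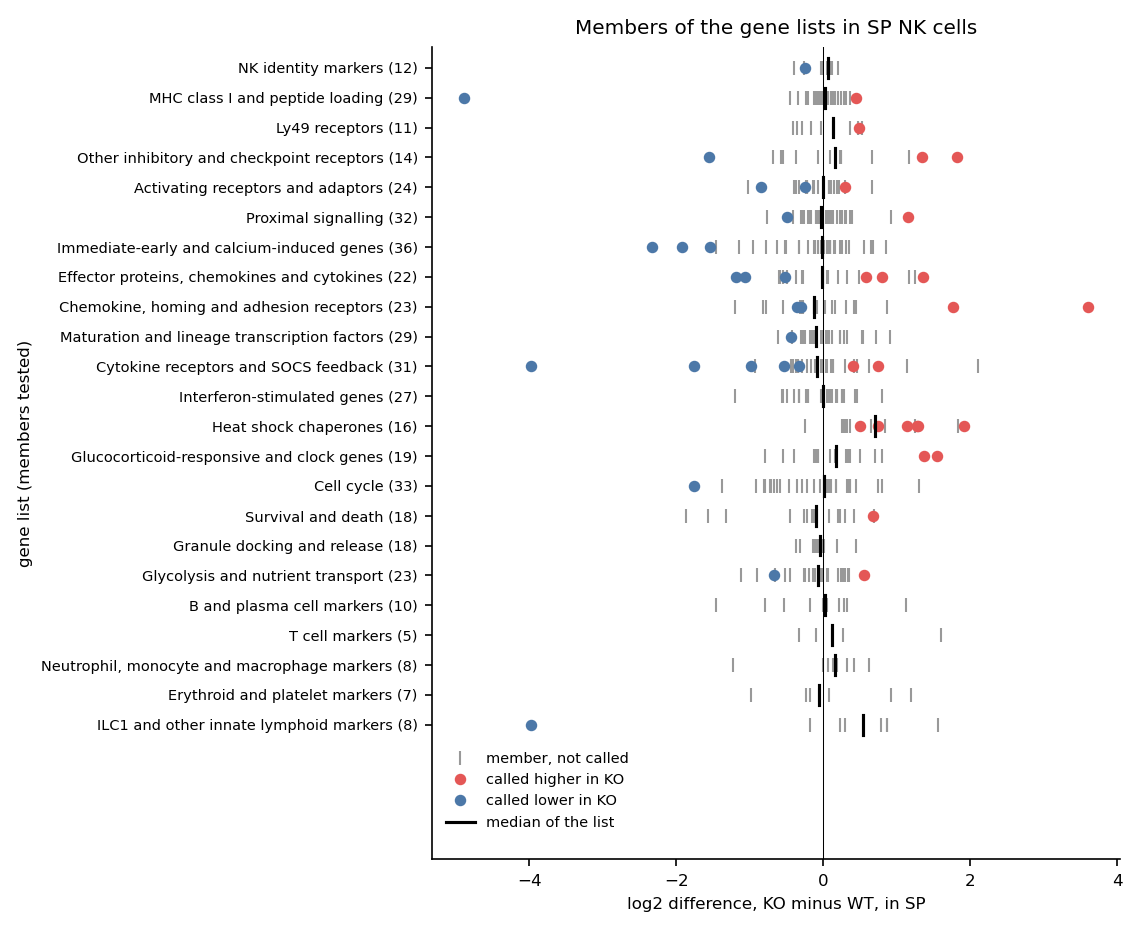
Each row is a gene list with the number of its tested members, and each mark a member placed by its log2 difference of KO minus WT in SP cells. Filled circles were called, red for higher and blue for lower, and black bars are list medians. The heat shock list has 6 red circles and a median of 0.70, and the marker lists of B cells, T cells, myeloid cells and erythroid cells have no circle.

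Outside these lists, the deepest falls included Slc28a2, Eps8l1, Arhgap31 and Ugt1a7c. Slc28a2, a nucleoside transporter, had 187, 218 and 193 TPM in WT and 29.9, 34.7 and 33.5 TPM in KO and fell by 2.57 on the log2 scale (SE 0.12, adjusted p = 5.82e-10). Eps8l1, related to an actin regulator, had 51.8, 93.6 and 79.1 TPM in WT and 9.36, 3.67 and 5.00 TPM in KO, and Arhgap31, a GTPase-activating protein for Cdc42 and Rac1, had 13.8, 14.0 and 15.3 TPM in WT and 0.46, 0.66 and 0.11 TPM in KO. Their log2 differences were -3.48 and -3.47, with adjusted p = 1.35e-04 and 3.41e-06. Ugt1a7c, a glucuronosyltransferase whose locus shares exons among its genes, had 51.5, 66.8 and 37.0 TPM in WT and 1.36, 5.35 and 4.23 TPM in KO and fell by 3.58 on the log2 scale (adjusted p = 4.55e-05). Serpine2, a secreted protease inhibitor, had 13.9, 16.7 and 6.48 TPM in WT and 0.56, 0 and 0.54 TPM in KO, and Ifi208, a gene of the interferon-inducible p200 family, had 46.4, 43.4 and 59.5 TPM in WT and 6.87, 5.70 and 6.03 TPM in KO. Their differences were -3.23 (adjusted p = 0.00162) and -2.81 (adjusted p = 5.56e-05). In each of these genes all KO libraries lay below all WT libraries, which the rule that chose them required. Dpysl5, a gene of nerve cell growth, completes the 14 named largest falls with -2.26 (adjusted p = 0.0174). The call of Dpysl5 was lost without any WT replicate or KO replicate 2 or 3, with adjusted p up to 0.112.

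A run of neighbouring genes on chromosome 1 accounted for several of the deepest falls. In the RefSeq gene order of GRCm38.p6, the tested genes Gsta3, Gm4956, Khdc1a, Khdc1c, Khdc1b and Kcnq5 stand next to each other, and all 6 were called lower, the longest such run among the 161 called genes that could be placed. Khdc1a had 82.7, 63.2 and 71.4 TPM in WT and 6.77, 6.81 and 6.75 TPM in KO, and fell by 3.23 on the log2 scale (SE 0.18, adjusted p = 1.14e-08). Khdc1b had 25.1, 23.3 and 30.0 TPM in WT and 1.55, 1.53 and 2.05 TPM in KO, and Khdc1c had 30.6, 42.6 and 27.6 TPM in WT and 3.47, 2.48 and 3.69 TPM in KO. Their log2 differences were -3.32 and -3.03, with adjusted p = 4.00e-06 and 0.00204. Gsta3, a glutathione transferase, had 9.75, 10.3 and 15.8 TPM in WT and 1.13, 1.12 and 1.44 TPM in KO and fell by 2.51 on the log2 scale (adjusted p = 0.00243, and 0.0783 with a pseudocount of 0.1). The predicted gene Gm4956, named here after its values were seen, had the largest fall of all tested genes, from 501, 465 and 383 TPM in WT to 1.97, 1.82 and 3.38 TPM in KO, and fell by 7.07 on the log2 scale (adjusted p = 1.10e-07). The potassium channel gene Kcnq5, chosen in the same way, fell by 1.57 on the log2 scale (adjusted p = 0.00498, and 0.0895 with the 6 SP libraries fitted alone). The groups did not overlap in any of the 6 genes, and in TP and TN cells all 6 had log2 differences of -1.60 or lower, with Gm4956 at -7.34 in TP and -6.00 in TN. The Khdc1 genes are close copies of each other, so reads may be divided wrongly among them. Chromosome 1 held 24 called genes among 698 tested, or 3.44%, against 1.35% of all tested genes. Other called genes lay close together too, and 73 of the 161 were within 10 tested genes of another. A run of 5 so defined lay on chromosome 6, with Pex26, Emg1 and Ptpn6 higher and Klrg1 and Slc2a3 lower in KO. Whether position played a part in these calls was not tested.

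Called genes were also counted around B2m itself. Of the 50 tested genes nearest to B2m in gene order, 25 on each side, 1 was called, Slc28a2, and of the nearest 200 there were 6, namely Slc28a2, Bub1b, Oip5os1, Ltk, Jmjd7 and Pla2g4b. These are 2.0% and 3.0% of those neighbours, beside 1.35% of all tested genes. Some of the 200 that were not called in SP were called in another subset. Bmf was such a gene, with log2 differences of -3.78 in TP (adjusted p = 1.53e-04) and -3.59 in TN (adjusted p = 4.71e-04) in limma. Leaving out B2m, its chromosome held 14 called genes among 939 tested, 1.49%, and the other chromosomes together 1.33%. Jmjd7 and Pla2g4b, named after their values were seen, overlap each other in the genome, so their levels share reads.

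Other large rises were mostly at low levels. Rab4a, a GTPase of endosome recycling, had 0.54, 0 and 0.51 TPM in WT and 10.1, 9.72 and 7.16 TPM in KO, and rose by 2.90 (adjusted p = 0.00275). Raet1a, which belongs to the family of NKG2D ligands, was listed at 0 in all 3 WT libraries and had 8.03, 3.83 and 6.41 TPM in KO (adjusted p = 0.00174), so no fold is given, and Raet1 genes are close copies. Cep85, a centrosome protein, stood at higher levels, 133, 134 and 204 TPM in WT and 505, 545 and 514 TPM in KO, and rose by 1.75 (SE 0.22, adjusted p = 1.66e-04). Ltk, a receptor tyrosine kinase, had 4.76, 0.62 and 3.01 TPM in WT and 14.1, 16.7 and 14.2 TPM in KO and rose by 2.25 (adjusted p = 0.00804). Nutf2, a nuclear import factor, had 2.16, 0.38 and 0 TPM in WT and 10.1, 9.08 and 16.4 TPM in KO, and the histone gene H4c9 had 6.44, 0 and 2.49 TPM in WT and 13.8, 22.1 and 18.5 TPM in KO. Ghrl, the precursor of ghrelin, had 1.15, 3.37 and 1.31 TPM in WT and 18.5, 17.2 and 6.14 TPM in KO. Their differences were 2.93, 2.67 and 2.29 with adjusted p = 0.035, 0.0215 and 0.0171, and H4c9 has near-identical copies that can share its reads. Camkk1, a calcium-dependent kinase, rose by 1.60 (adjusted p = 0.0263) and Zcchc10 by 1.55 (adjusted p = 0.0154). In each of these genes the KO libraries lay above all WT libraries, which the rule that chose them required. Of the 92 genes called higher, 12 had a WT mean under 5 TPM, beside the larger number of genes above 0 in the KO libraries. Among the 70 genes called lower, 15 had a KO mean under 5 TPM, so low levels were not limited to the rises. Calls were lost, with adjusted p up to 0.168, for Ltk without KO replicate 2, Nutf2 and H4c9 without WT replicate 2 or 3 or any KO replicate, Ghrl without WT replicate 1 or 3 or KO replicate 1 or 2, Camkk1 without WT replicate 2 or 3 or KO replicate 1 or 2, and Zcchc10 without WT replicate 1 or 2 or KO replicate 2 or 3.

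Mir6948, the gene of a microRNA, had the largest rise of a named gene. It was listed at 0 in all 3 WT SP libraries and had 36.1, 35.4 and 68.2 TPM in KO (adjusted p = 0.00167). The 2 mature arms are shown to make plain what the symbol stands for, from RefSeq on GRCm38.p6, both on the minus strand, with the seed (bases 2 to 8) in capitals. The 3p arm lies at chr14:54643050-54643070 and the 5p arm at chr14:54643084-54643105, and their seeds differ.
mmu-miR-6948-3p: uGUCCUUCcugucugaccaca
mmu-miR-6948-5p: aGUUCAGAcaggacugugacac
The hairpin is 62 bases long, so a few reads give a high TPM, and messenger RNA libraries do not measure mature microRNAs. It overlaps Acin1, an RNA-processing gene, which had 506, 508 and 501 TPM in WT and 510.5, 567 and 536 TPM in KO and was not called (log2 difference 0.09, adjusted p = 0.779). Mir6948 was listed at 0 in all WT and KO TP libraries, so its log2 difference of -0.00 there means no detection. In TN it stood at 24.69 TPM in KO replicate 1 and at 0 in every other library, a log2 difference of 1.56. It was called in neither subset.

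Alternatives that kept all 6 SP libraries also ended calls among the 65 named genes that were called. Fitting the 6 SP libraries alone ended 35 of these calls, with adjusted p from 0.0640 to 0.244. Besides the genes for which this was already given, they included all 6 called heat shock genes, the receptors Tigit, Ncr1, Cd2, Klra7, Il21r, Il27ra, Il18rap and Itgb2, the early genes Egr3 and Nr4a1, the chemokines Xcl1 and Ccl3, and Ubash3b, Tcf7, Bcl2, Slc2a3, Slc3a2, Ltk, Ghrl, H4c9, Nutf2, Camkk1 and Zcchc10. Leaving out the filter on low values ended 16 calls, with adjusted p from 0.0514 to 0.141, namely those of Ccl3, Xcl1, Cd2, Ncr1, Egr3, Il18rap, Il21r, Dnaja1, Hsp90ab1, Hspa8, Slc3a2, Dpysl5, Ghrl, H4c9, Nutf2 and Camkk1. A fit with no variance trend ended 16, with adjusted p from 0.0533 to 0.251, among them Ccl3, Xcl1, Cd2, Ncr1, Klra7, Itgb2, Il18r1, Il18rap, Il27ra, Dnaja1, Hsp90ab1, Slc3a2, Tcf7, Ubash3b and Nutf2. Median-of-ratios scaling ended those of Cd2, Dnaja1, Hsp90ab1 and Slc3a2, quantile normalization that of Itgb2 (adjusted p = 0.111) beside Ncr1 and Cd2, and a pseudocount of 0.1 that of H4c9 (adjusted p = 0.0676) beside Gsta3. A pseudocount of 0.1 also moved the differences of genes near 0 by more than 1.5 times, to -4.06 for Bub1b, -5.05 for Serpine2, 4.60 for Nutf2, 4.73 for Rab4a, 5.89 for Raet1a and 8.79 for Mir6948, all still called.

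Most genes called in SP cells had differences of the same sign in the other subsets of the same genotypes. The labels do not say whether same-numbered SP, TP and TN libraries of a genotype came from the same mouse, so the subsets may share mice. In TP cells 1.59% of tested genes were called (191) and in TN cells 0.716% (86). Of the 162 genes called in SP, 93 were also called in TP, which is 57.4% of the SP list and 48.7% of the TP list, and 57 were also called in TN, which is 35.2% of the SP list and 66.3% of the TN list. Called in all 3 subsets were 48, and 60 were called in neither TP nor TN, of which 37 were higher and 23 lower. The sign was the same as in SP for 153 genes in TP and 152 in TN, beside 62.0% and 58.9% of all tested genes. The median size of the log2 difference over the 162 genes was 1.00 in SP, 0.72 in TP and 0.60 in TN, where the SP value is raised by the choice of genes on SP values. Cxcr4 stood at 47.6, 36.1 and 62.3 TPM in WT TP and 483, 417 and 472 TPM in KO TP, and at 57.0, 56.1 and 69.4 TPM in WT TN and 412, 425 and 481 TPM in KO TN, so the KO groups were high in all 3 subsets. Tsc22d3 had log2 differences of 1.51 in TP and 1.72 in TN, and Serpinb9 0.87 and 0.63, all 4 of them called. Kit fell in TP (-3.98) and TN (-2.07) as well.

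**Figure D4:**
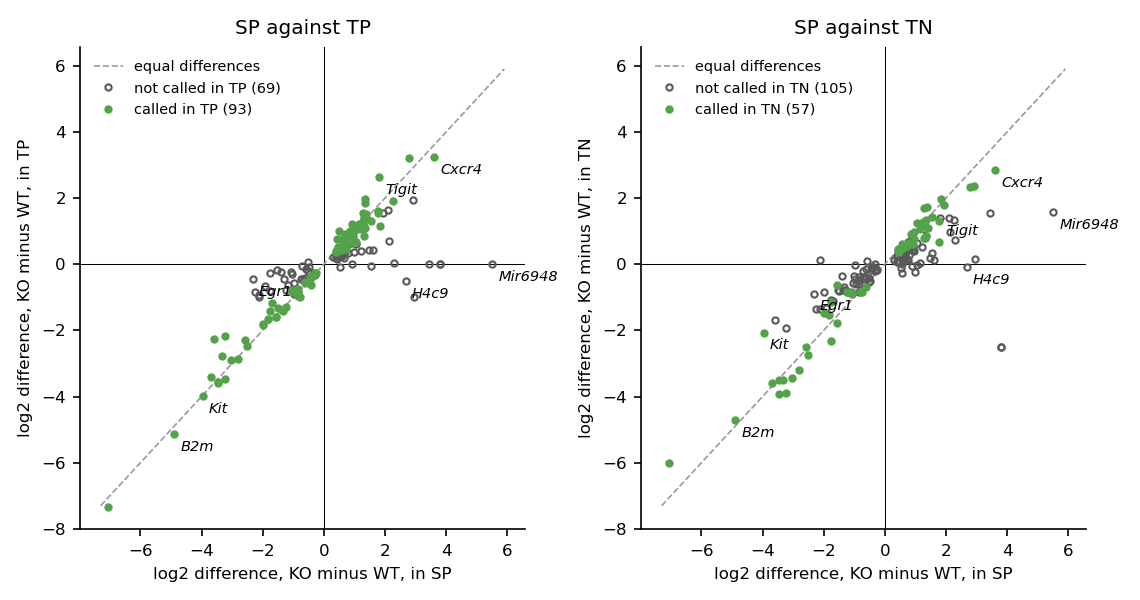
Each point is 1 of the 162 genes called in SP cells, with the log2 difference of KO minus WT in SP on the x axis and in TP (left) or TN (right) on the y axis. Filled green points were also called in that subset, 93 in TP and 57 in TN, and the dashed line marks equal differences. Points near the horizontal axis had small differences in the other subset or, like Mir6948 in TP, were listed at 0 in all its libraries.

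The test of the difference itself, the KO effect in SP minus the KO effect in another subset, called very few genes. Against TP it called 2 genes, 0.0166% of those tested, with 530 at an unadjusted p under 0.05. Both, Ngp and S100a9, encode neutrophil granule proteins that were listed at 0 in nearly all SP libraries and were high in KO TP cells, at 17.8, 19.4 and 40.0 TPM for Ngp and 13.2, 52.3 and 95.1 TPM for S100a9. The differences of effect were -4.46 for Ngp (adjusted p = 0.0202) and -5.25 for S100a9 (adjusted p = 0.0233). The summed myeloid markers were 100.8 to 294.0 TPM in KO TP libraries and at most 26.57 TPM in any SP library. Neither call was made without WT SP replicate 2 or without KO SP replicate 1, where the count was 0, and the count was 1 without WT SP replicate 1 or 3 and 5 without KO SP replicate 3. Against TN no gene was called in limma, 0% of those tested, with 675 at an unadjusted p under 0.05. The count was 1 without WT SP replicate 2 and 2 without KO SP replicate 3. Among the 162 genes called in SP the smallest adjusted p of the difference was 0.440 against TP and 0.134 against TN, so none of these genes can be called particular to SP cells.

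Values of some named genes in the other subsets are given side by side. Egr1 had 6.74, 6.09 and 3.54 TPM in WT TP and 2.48, 6.82 and 2.53 TPM in KO TP, and 6.31, 12.7 and 8.80 TPM in WT TN and 3.13, 6.22 and 4.12 TPM in KO TN. The WT SP libraries were above every other library of the table, and the KO levels were low in all 3 subsets. Its effect in SP minus that in TP was -1.87 (unadjusted p = 0.00236, adjusted p = 0.867) and minus that in TN -1.43 (unadjusted p = 0.0141, adjusted p = 0.859). Nr4a1 had log2 differences of -0.17 in TP and -0.78 in TN, and Egr3 -0.66 and -1.34, none of them called. Ccl4 had -0.24 in TP, not called, and -0.84 in TN, called (adjusted p = 0.0203), with a difference of effect of -0.82 against TP (unadjusted p = 0.00266, adjusted p = 0.867). S1pr1 rose in TP by 1.61 and in TN by 0.68, and its effect in SP exceeded that in TN by 1.09 (unadjusted p = 1.77e-05, adjusted p = 0.134). Klrg1 fell in TP (-1.61) and in TN (-0.63), and the SP effect minus the TN effect was -0.92 (unadjusted p = 2.37e-04, adjusted p = 0.424). Ptpn6 rose in TP by 1.23 and had 0.03 in TN (adjusted p = 0.976), with a difference of effect of 1.12 between SP and TN (unadjusted p = 1.40e-04, adjusted p = 0.335). Klra7 rose in TP by 0.99, more than in SP by value, with a difference of -0.51 (unadjusted p = 9.31e-04, adjusted p = 0.860). Of the 60 genes called in SP and in neither other subset, 26 had an unadjusted p under 0.05 for the difference against TP, 31 against TN and 18 against both. These 60 genes were chosen because they passed the test in SP and not in TP or TN. That choice by itself favours a low p for the difference, so no conclusion is drawn from these counts.

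**Figure D5:**
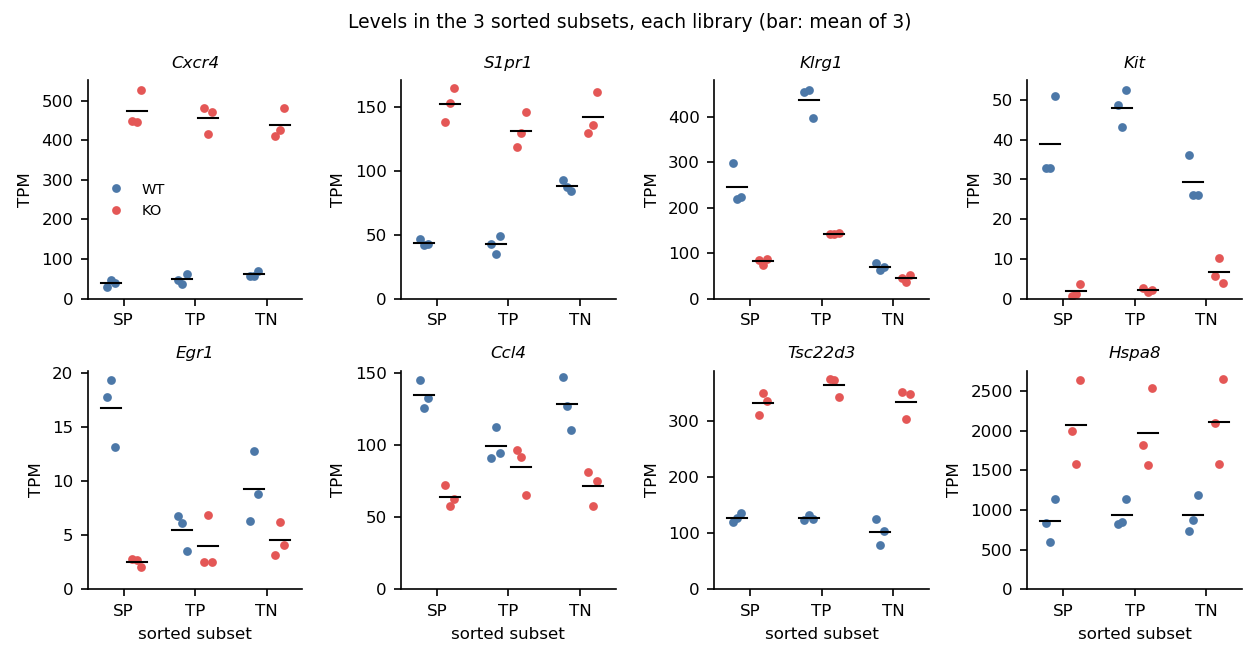
Levels of 8 genes in TPM in the SP, TP and TN subsets, with 1 point for each library (blue WT, red KO) and a black bar for the mean of 3. Cxcr4 and Tsc22d3 were high in the KO libraries of every subset, Egr1 was highest in the WT SP libraries, and Hspa8 was high in all KO groups, with a wide spread among replicates.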

How the data were processed

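RNA was measured in sorted splenic NK cells, and 6 libraries (3 KO SP, 3 WT SP) were compared within a table of 18 libraries in 6 groups of 3. The authors deposited TPM values per gene, and the submitters' processing notes name STAR, RSEM and GRCm39 without versions. Depth per library cannot be recovered from TPM, so no counting interval is given. The table's 32940 genes were filtered to the 12018 whose mean in the 18 libraries reached 1 TPM, transformed as log2(TPM + 1) and fitted with limma 3.58.1 in R 4.3.3 as group means, with an intensity trend and 12 residual degrees of freedom. Tests were two-sided and adjusted by Benjamini-Hochberg over all tested genes, with calls under 0.05. The script was tested on simulated data. With 3 against 3 libraries, exact permutation for 1 gene reaches at best p = 0.1. The labels call the samples biological replicates and do not say whether each came from 1 mouse. The p-values thus measure the spread between libraries within groups, pooled over all 18 libraries and moderated across genes, and not that of the 6 SP libraries alone.

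The libraries compared, the 24 gene lists and the motifs were chosen with earlier results of these data known. Genes named are the sort genes, the 14 largest rises and the 14 largest falls among called genes with no overlap between groups (leaving out predicted genes and pseudogenes), all called list members, genes called in a test between subsets, and uncalled list members of high level or large difference. A gene that met this rule is not reported here. Lilrb4a is listed under 2 identifiers. Same-numbered KO and WT SP libraries did not deviate together (correlations of -0.010, -0.025 and 0.024), so replicate numbers were not used as pairs, although the summed heat shock genes ranked by number in all 6 groups. Gene order, promoters and microRNAs come from RefSeq on GRCm38.p6, while levels are on GRCm39, and 11911 tested genes and 161 called genes could be placed. Alternatives were other pseudocounts, filters, scalings and variance models, the SP libraries alone, blocks by replicate number or by an assumed mouse, and each SP library left out. The ionomycin, antibody and tumour experiments were not used here.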

Additional observations from a re-analysis of the deposited data

Results flagged for a closer look

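The difference between KO and WT was not the same in SP and TP samples for 2 neutrophil genes, by a test of the difference itself. Ngp had a log2 difference (KO minus WT) of 0.19 in SP and 4.65 in TP, a difference of -4.46 (SE 0.62, adjusted p = 0.0202 in limma). S100a9 had 0.13 in SP and 5.38 in TP, a difference of -5.25 (SE 0.78, adjusted p = 0.0233 in limma). Both genes were listed at 0 in all 3 WT libraries of SP and TP, in KO SP replicate 2 they stood at 0.48 and 0.31 TPM, and in KO TP cells all 3 libraries were above 13 TPM. The difference thus lies in the TP libraries, where summed myeloid markers were 100.8 to 294.0 TPM, and their part in it was not tested.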

How the results depend on the processing

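The number of genes called between KO and WT SP cells was 162, moved to 68 with the 6 SP libraries alone, and ran from 91 to 165 when 1 SP library was left out. It stayed within 1.5 times of 162 under the other alternatives, from 147 with no variance trend to 180 with the replicate block by number, and was 168 with a random block that takes same-numbered subsets of a genotype as 1 mouse, which the labels do not state. Over all genes, deviations of same-numbered KO and WT SP libraries were nearly uncorrelated, while the summed heat shock genes had the same order of replicate numbers in all 6 groups. With the block by number 7 heat shock genes were called against 6, and the call of Bub1b was lost (adjusted p = 0.0602). Of the 162 calls, 153 were shared with the block by number and 59 with the SP libraries alone. Median-of-ratios scaling gave 80 higher and 78 lower against 92 and 70. The count for the effect in SP minus that in TP, 2, was 0 with a pseudocount of 0.1, 0 with a minimum mean of 5 TPM, 0 with the replicate block by number, 5 with no filter, 4 with no variance trend and 6 with only the contrast's groups, and ran from 0 to 5 with 1 SP library left out. For SP minus TN, 0, it was 1 with no filter and ran from 0 to 2 with 1 SP library left out. At an unadjusted p under 0.05 the 5 fits with a count of 0 against TP had 554 (pseudocount), 423 (minimum mean), 541 (block by number), 551 (without WT SP replicate 2) and 445 genes (without KO SP replicate 1), and there were 529 to 830 against TN with 1 library left out. Over the named genes and 15 alternatives, 869 values kept their side of the threshold, 204 lost a call and 1 gained one. No called value reversed, which most alternatives could not have brought about, since they leave the difference as it is or leave out 1 library of groups that do not overlap. Of 65 called genes named, 27 were called in every alternative, among them B2m, Cxcr4, S1pr1, Kit, Klrg1, Klrb1b, Egr1, Ccl4, Serpinb9, Tnfrsf9, Ifngr1 and Tsc22d3. Depth is unknown, which limits statements on genes near 0.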
